A study of Homo sapiens with 14 samples.

Results

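The genes described here are 10 genes of RNA polymerase I transcription and of the nucleolus: POLR1A, POLR1B, UBTF, RRN3, TAF1D, NCL, NPM1, FBL, NOLC1 and NOP56. They were taken by gene name from the deposited gene count table, which holds 58780 genes in 14 libraries. All 10 were found, and all 10 were among the 21910 genes that passed the filter on low counts and were tested. A549 cells, a single line from a human lung adenocarcinoma, were profiled by PRO-seq, a run-on assay in which polymerases at work on permeabilized cells add a biotin-tagged nucleotide and the tagged RNA is sequenced. GSK591 is an inhibitor of PRMT5, which makes most of the cell's symmetric dimethylarginine. MS023 inhibits the type I arginine methyltransferases, which make asymmetric dimethylarginine. Dexamethasone (Dex) is a synthetic glucocorticoid that activates the glucocorticoid receptor. The 7 groups of 2 libraries were untreated cells, labelled 15 min, cells given 1 µM GSK591 or 1 µM MS023 for 15 min, either inhibitor at 1 µM with 100 nM Dex, also for 15 min, and either inhibitor at 1 µM for 3 h. The labels give 0.01% DMSO for every group. Dex without an inhibitor, and a 3 h untreated group, are not analysed here. An effect of Dex is therefore seen only beside an inhibitor, and a comparison of 3 h with untreated cells also carries any difference between 15 min and 3 h in culture. Nothing in the labels says that the replicates were separate cultures. The p-values therefore rest on counting error and on the spread between these libraries, which may be technical.

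Library totals ranged from 5768312 to 9606938 counts. Genes of the mitochondrial chromosome took 39.8% to 58.0% of them, with group means from 42.2% ± 3.3 (SD, n = 2) in the MS023 15 min pair to 53.9% ± 0.18 in the untreated pair. The GSK591 with Dex pair differed most within a group: its chi-square, divided by its degrees of freedom, was 15.4, against 2.15 for the untreated pair. This measure included mitochondrial genes, whose share was 48.2% and 58.0% in that pair and 54.0% and 53.8% in the untreated pair. The part of that share in the chi-square was not tested. No pair agreed within sampling noise by this measure. All 10 A549 and epithelial markers examined were tested, at medians from 2.19 (CDH1) to 306 (KRT8) CPM, counts scaled to library size, and 1 of 8 markers of other cell types passed the filter (COL1A1, median 6.66 CPM).

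RNA polymerase I transcribes the ribosomal RNA precursor from repeated ribosomal DNA genes in the nucleolus. POLR1A and POLR1B encode its largest subunits. UBTF encodes upstream binding factor, which binds along ribosomal DNA and keeps it open. RRN3, also known as TIF-IA, joins the polymerase to the promoter, and TAF1D is a subunit of the promoter selectivity factor SL1. Fibrillarin (FBL) is the methyltransferase of the box C/D small nucleolar ribonucleoproteins (snoRNPs), which place 2'-O-methyl groups on ribosomal RNA, and NOP56 is a core protein of the same particles. NOLC1 (Nopp140) is a chaperone of these particles. Nucleolin (NCL) and nucleophosmin (NPM1) are abundant nucleolar proteins of ribosome assembly. Fibrillarin and nucleolin carry glycine- and arginine-rich tails that are well-known substrates of arginine methylation. All 10 genes are themselves transcribed by RNA polymerase II, so their reads report transcription of these genes and not the activity of polymerase I. The amounts of their mRNAs and proteins were not measured.

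UBTF, NOP56 and FBL were the members with a called change in at least 1 comparison, and their promoters are shown for that reason. The sequences are the 250 bases before a RefSeq start on GRCh38.p14, 5' to 3' on the gene's strand. Capitals mark the GC box (GGGCGG) and the CCAAT box (CCAAT), each searched on both strands, with overlapping GC boxes counted separately. The UBTF window is chr17:44220883-44221132 (minus strand, the first of 2 listed starts), the NOP56 window chr20:2652382-2652631 (plus strand) and the FBL window chr19:39846380-39846629 (minus strand).
UBTF: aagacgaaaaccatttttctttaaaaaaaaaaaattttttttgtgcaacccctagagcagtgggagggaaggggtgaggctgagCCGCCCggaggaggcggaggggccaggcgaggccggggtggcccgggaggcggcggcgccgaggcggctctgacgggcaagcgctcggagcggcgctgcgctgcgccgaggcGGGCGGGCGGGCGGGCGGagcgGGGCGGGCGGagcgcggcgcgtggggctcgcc
NOP56: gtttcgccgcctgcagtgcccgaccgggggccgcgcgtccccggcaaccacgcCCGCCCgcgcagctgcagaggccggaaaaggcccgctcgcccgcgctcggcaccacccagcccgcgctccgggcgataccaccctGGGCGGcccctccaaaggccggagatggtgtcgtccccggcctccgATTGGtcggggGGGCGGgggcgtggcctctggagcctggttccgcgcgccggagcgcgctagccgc
FBL: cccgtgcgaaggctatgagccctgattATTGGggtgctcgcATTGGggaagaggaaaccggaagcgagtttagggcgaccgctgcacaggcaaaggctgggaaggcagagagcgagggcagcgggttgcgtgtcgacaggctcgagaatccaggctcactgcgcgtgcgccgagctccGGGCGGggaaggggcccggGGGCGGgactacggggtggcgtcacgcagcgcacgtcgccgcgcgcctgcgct
The UBTF window held 7 GC boxes, several of them overlapping in a run near its downstream end, and no CCAAT box. The NOP56 window held 3 GC boxes and 1 CCAAT box, and the FBL window held 2 of each. Their GC content was 70.8%, 78.0% and 68.8%, against a mean of 57.2% over 35116 promoter windows of the same length. Among those windows 42.6% held a GC box and 32.0% a CCAAT box. Of the 10 genes, 9 had a RefSeq promoter, with 13 starts in all. The E-box CACGTG, in 6.34% of all windows, and the glucocorticoid receptor motif AGAACA, in 12.4%, were in none of the 13. These matches describe letters in the windows and say nothing on binding.

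In untreated cells the nucleolar and snoRNP protein genes lay above most of the polymerase I genes per unit of exon length. NOP56 stood highest, at 39.8 ± 1.4 CPM per kilobase of exon (SD, n = 2), at the 98.3rd percentile of tested genes. NCL followed at 37.2 ± 2.1, FBL at 17.7 ± 0.73 and UBTF at 15.3 ± 0.77 CPM per kilobase. UBTF was thus the highest of the 5 polymerase I genes. NOLC1 was at 12.2 ± 0.19, NPM1 at 9.77 ± 0.58 and POLR1A at 6.68 ± 0.41 CPM per kilobase. The lowest 3 were TAF1D at 5.64 ± 0.73, POLR1B at 4.17 ± 0.44 and RRN3 at 2.34 ± 0.081 CPM per kilobase, the last at the 45.3rd percentile. No neighbours in this order overlapped between their 2 untreated libraries. These values count reads per exon length and assume that counting followed exons, since the counting feature is not given in the sources used here.

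**Figure D1:**
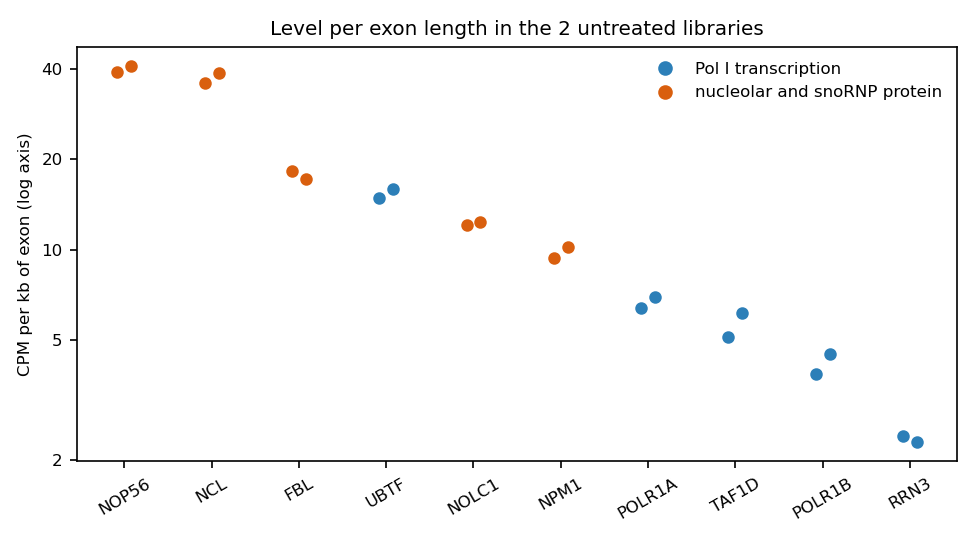
Level of each gene in the 2 untreated libraries (points), in CPM per kilobase of exon on a log axis, with genes in order of their mean. NOP56 and NCL lie near 40 and RRN3 lies lowest, at a mean of 2.34.

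RRN3 and NPM1 are the least certain of the 10, because annotated pseudogene copies took many reads beside them, which the counting could split. The 4 annotated RRN3 pseudogenes took 1739 counts over the 14 libraries against 1148 for RRN3 itself. The 45 NPM1 pseudogenes took 2091 counts against 4198 for NPM1, of which NPM1P27 took 1161. For NCL and NOP56 the pseudogene counts came to 2.49% and 1.01% of the gene's own. Exons shared with other genes matter for TAF1D, with 11.2% of its exon bases shared on its own strand and 6.07% with genes on the other strand, for NOP56 (8.74%, same strand) and for UBTF (3.62%, other strand).

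Differences between groups were tested gene by gene with edgeR's quasi-likelihood test, and a gene was called where its Benjamini-Hochberg adjusted p over all 21910 genes was under 0.05. Log2 fold changes are given ± their standard error. Over 13 planned comparisons the 10 genes gave 130 values, of which 7 were called. Of these, 4 were rises and all 4 belonged to UBTF, while the 3 falls belonged to NOP56 (2 comparisons) and FBL. POLR1A, POLR1B, RRN3, TAF1D, NCL, NPM1 and NOLC1 were called in none of the 13. Among all tested genes, calls in 1 direction reached 7.65% in a single comparison (higher, MS023 3 h against 15 min). The shares for each comparison are given below, and no excess over them is read from the 7 calls. In the 12 comparisons of a pair of groups, standard errors lay between 0.09 and 0.19 on the log2 scale and the largest uncalled change was 0.34 in size. In the test of a difference between Dex effects, standard errors reached 0.26 and the largest uncalled difference was 0.47 in size.

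**Figure D2:**
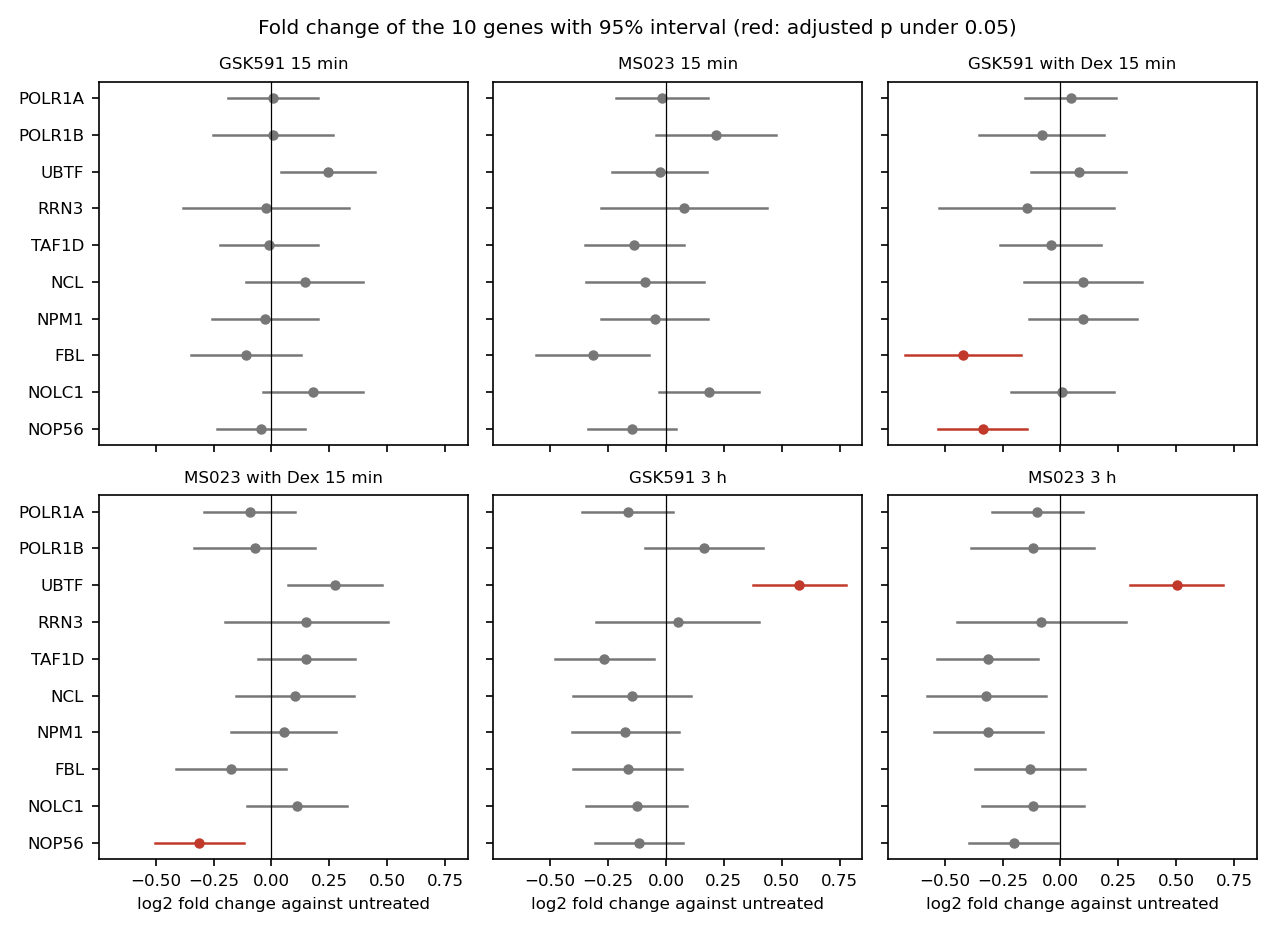
Log2 fold change against untreated of each of the 10 genes (points) with its 95% interval (lines), in 1 panel per treatment, with called genes in red. UBTF is called at 3 h of either inhibitor, NOP56 with either inhibitor plus Dex, and FBL with GSK591 plus Dex.

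UBTF rose after 3 h of either inhibitor. Untreated libraries had 103 and 111 CPM, GSK591 3 h libraries 164 and 156 CPM, and MS023 3 h libraries 159 and 144 CPM. All 4 libraries at 3 h lay above every library of the other 5 groups, whose highest value was 134.5 CPM in MS023 with Dex replicate 2. Against untreated the log2 fold change was 0.58 ± 0.10 with GSK591 (1.49-fold, 95% interval 0.38 to 0.78, edgeR adjusted p = 6.1e-05). With MS023 it was 0.50 ± 0.10 (1.42-fold, interval 0.30 to 0.70, edgeR adjusted p = 0.00053). Both calls were kept under all 11 alternatives tried for each, with values from 0.47 to 0.71 for GSK591 and from 0.42 to 0.58 for MS023.

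UBTF was also the only 1 of the 10 called between 15 min and 3 h of the same inhibitor. At 15 min its level was 132 and 122 CPM with GSK591 and 95.5 and 116 CPM with MS023. Against untreated this was 0.24 ± 0.10 with GSK591 (edgeR adjusted p = 0.58) and -0.03 ± 0.10 with MS023 (0.98). With Dex added, UBTF against untreated was 0.08 ± 0.10 beside GSK591 (edgeR adjusted p = 0.75) and 0.27 ± 0.10 beside MS023 (0.089). None of these was called, but both libraries lay above both untreated ones with GSK591 alone and with MS023 and Dex. From 15 min to 3 h UBTF rose by 0.53 ± 0.10 with MS023 (edgeR adjusted p = 0.00023) and by 0.33 ± 0.10 with GSK591 (edgeR adjusted p = 0.034). The 2 changes differed by -0.20 ± 0.14 (GSK591 minus MS023), which was not called (edgeR adjusted p = 0.72). The MS023 call was lost without MS023 15 min replicate 1 (0.39, adjusted p = 0.057), where NOLC1 was called lower in its place (-0.45, adjusted p = 0.033), and the GSK591 call without any 1 of the 4 libraries compared: GSK591 15 min replicate 1 (0.39, adjusted p = 0.086) or 2 (0.28, 0.31), and GSK591 3 h replicate 1 (0.30, 0.23) or 2 (0.37, 0.12). Scaling by library size alone ended both calls (adjusted p = 0.084 with MS023 and 0.11 with GSK591).

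**Figure D3:**
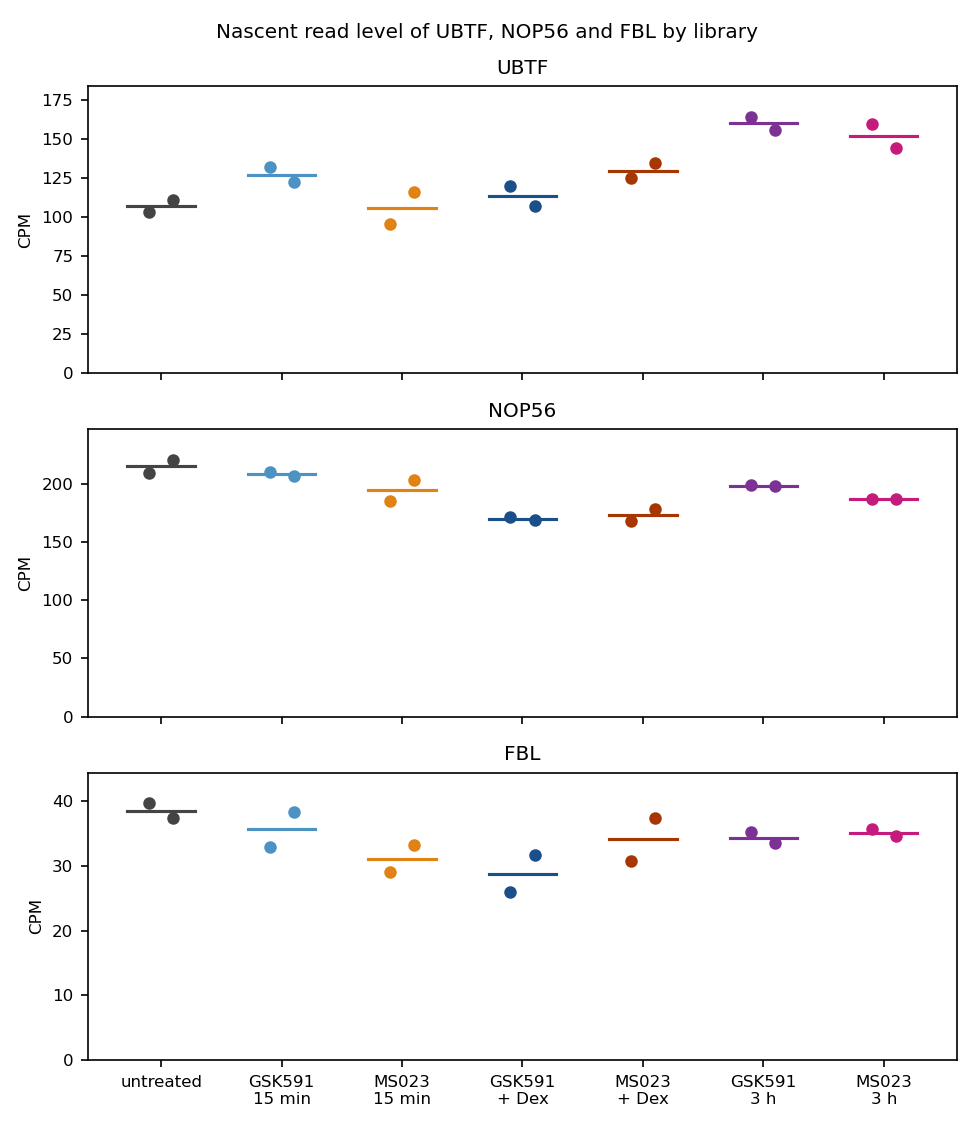
Level of UBTF, NOP56 and FBL in each of the 14 libraries (points, CPM on linear axes from 0), with the mean of each pair as a line. The 4 libraries at 3 h lie highest for UBTF, and the 4 libraries with Dex lie lowest for NOP56.

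The 7 groups ordered by mean UBTF level ran from MS023 15 min (106 ± 14 CPM, SD, n = 2) through untreated (107 ± 5.4), GSK591 with Dex (113 ± 9.1), GSK591 15 min (127 ± 6.5) and MS023 with Dex (129.7 ± 6.9) to MS023 3 h (152 ± 11) and GSK591 3 h (159.8 ± 6.0). Neighbouring groups overlapped in their libraries, except that GSK591 with Dex lay below GSK591 15 min and that MS023 with Dex lay below MS023 3 h. At 3 h the inhibitors differed by 0.07 ± 0.10 (GSK591 minus MS023, interval -0.12 to 0.27). The 2 genes that overlap UBTF exons on the other strand were not called at 3 h. AC003102.1 was at 28.1 ± 4.2 CPM untreated, 28.6 ± 1.4 with GSK591 and 26.1 ± 0.96 with MS023, and AC004596.1 at 8.17 ± 0.13, 8.83 ± 0.29 and 7.75 ± 0.36 CPM. UBTF lies on the minus strand of chr17:44205033-44221626 in GENCODE 29 (GRCh38), in 25 exon blocks.

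NOP56 fell in the groups that received Dex with an inhibitor. Untreated libraries had 209.6 and 220.5 CPM, those with GSK591 and Dex 171 and 169 CPM, and those with MS023 and Dex 168 and 179 CPM. These 4 Dex libraries were the lowest of the 14, and the next was MS023 15 min replicate 1 at 185 CPM. Against untreated the log2 fold change was -0.34 ± 0.10 beside GSK591 (edgeR adjusted p = 0.026) and -0.31 ± 0.09 beside MS023 (edgeR adjusted p = 0.031). Each call was lost without any 1 of its 4 libraries, with adjusted p-values from 0.06 (without GSK591 with Dex replicate 1) to 0.22 (without untreated replicate 2) for the first, and from 0.1 (without MS023 with Dex replicate 2) to 0.25 (without MS023 with Dex replicate 1) for the second. The first was also lost in a fit on the 2 groups alone (adjusted p = 0.074) and the second with scaling by library size alone (adjusted p = 0.2). Against the same inhibitor without Dex the difference was -0.29 ± 0.10 for GSK591 (adjusted p = 0.078) and -0.16 ± 0.09 for MS023 (adjusted p = 0.34), neither of them called. DESeq2 called the first of these (-0.29, adjusted p = 0.041). NOP56 without Dex had a mean of 209 ± 2.0 CPM with GSK591 and 194 ± 13 CPM with MS023 at 15 min, and 198 ± 0.53 CPM with GSK591 and 187 CPM in both MS023 libraries at 3 h. It lies on the plus strand of chr20:2652145-2658393.

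FBL fell with GSK591 and Dex against untreated. Its untreated libraries had 39.7 and 37.4 CPM, and the GSK591 with Dex libraries 25.9 and 31.7 CPM. The log2 fold change was -0.42 ± 0.12 (edgeR adjusted p = 0.034). The call was lost without untreated replicate 1 (adjusted p = 0.25) or 2 (0.099), without GSK591 with Dex replicate 1 (-0.29, adjusted p = 0.28), in a fit on the 2 groups alone (0.058) and with DESeq2 (0.11). With MS023 and Dex the libraries had 30.8 and 37.4 CPM, which overlapped the untreated pair, and the change was -0.18 ± 0.12 (edgeR adjusted p = 0.46). Against GSK591 without Dex, FBL with GSK591 and Dex differed by -0.31 ± 0.13 (edgeR adjusted p = 0.18), which was not called. The difference between MS023 with and without Dex was 0.14 ± 0.12 (edgeR adjusted p = 0.59), also not called. With MS023 for 15 min and no Dex, FBL was at 29.1 and 33.2 CPM, below both untreated libraries, but the change of -0.32 ± 0.12 was not called (adjusted p = 0.45). At 3 h it had 35.2 and 33.5 CPM with GSK591 and 35.7 and 34.7 CPM with MS023. FBL lies on the minus strand of chr19:39834458-39846414.

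The mitochondrial share of counts moved with these groups. It was 47.8% ± 1.2 and 42.2% ± 3.3 (SD, n = 2) with GSK591 and MS023 at 15 min, 53.1% ± 6.9 and 51.3% ± 2.4 with Dex added, and 45.4% ± 2.7 and 51.8% ± 2.0 at 3 h. Its part in the results was not tested. With library sizes taken over the genes outside the mitochondrial chromosome, FBL changed by -0.58 and NOP56 by -0.49 with GSK591 and Dex, beside a median over all genes of -0.14.

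The 2 largest subunits of polymerase I and the SL1 and initiation factors stayed uncalled. POLR1A (chr2:86020216-86106155, minus strand) ranged from 76.9 CPM in GSK591 3 h replicate 2 to 98.1 CPM in GSK591 with Dex replicate 2, with a median of 87.9 CPM. It was the narrowest range of the 10, at 1.27-fold from lowest to highest library. POLR1B (chr2:112541915-112577150, plus strand) had 24.4 and 28.4 CPM untreated, 32.4 and 28.6 CPM with MS023 at 15 min and 23.9 and 24.7 CPM with MS023 at 3 h. Its change from 15 min to 3 h of MS023 was -0.34 ± 0.13 (adjusted p = 0.091), and with GSK591 it was 0.16 ± 0.13 (adjusted p = 0.54). The difference between these changes was 0.49 ± 0.18 and was not called (adjusted p = 0.29). RRN3 (chr16:15060022-15094317, minus strand) stayed between 8.44 and 11.4 CPM on 59 to 101 reads per library. Its standard error reached 0.19 between a pair of groups and 0.26 in the test of a difference between Dex effects, the largest of the 10 in both.

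TAF1D (chr11:93729948-93784391, minus strand) had its lowest libraries at 3 h. It was at 43.1 and 51.8 CPM untreated, 40.3 and 38.6 CPM with GSK591 for 3 h, and 36.3 and 40.2 CPM with MS023 for 3 h. All 4 of the 3 h libraries lay below both untreated ones. The log2 fold changes were -0.27 ± 0.11 (adjusted p = 0.1) and -0.32 ± 0.11 (adjusted p = 0.065), neither of them called. With MS023 and Dex it stood highest, at 52.0 and 53.4 CPM, and differed from MS023 alone by 0.29 ± 0.11 (adjusted p = 0.089).

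The nucleolar proteins NCL and NPM1 were also lowest with MS023 for 3 h, without being called. NCL (chr2:231453531-231483641, minus strand) had 247 and 268 CPM untreated and 195 and 218 CPM with MS023 for 3 h, a change of -0.32 ± 0.13 (adjusted p = 0.12). Its pair with GSK591 and Dex was wide apart, at 225 and 326 CPM, the largest difference within a group for any of the 10. NPM1 (chr5:171387116-171411137, plus strand) had 35.8 and 39.0 CPM untreated and 27.3 and 33.3 CPM with MS023 for 3 h, a change of -0.31 ± 0.12 (adjusted p = 0.098). NOLC1 (chr10:102152176-102163871, plus strand) had 54.9 and 55.2 CPM with GSK591 at 15 min and 43.3 and 45.7 CPM at 3 h. With MS023 it had 50.2 and 61.0 CPM at 15 min and 44.0 and 45.4 CPM at 3 h. The change from 15 min to 3 h was -0.31 ± 0.11 with either inhibitor (adjusted p = 0.078 with GSK591 and 0.06 with MS023), not called in either.

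**Figure D4:**
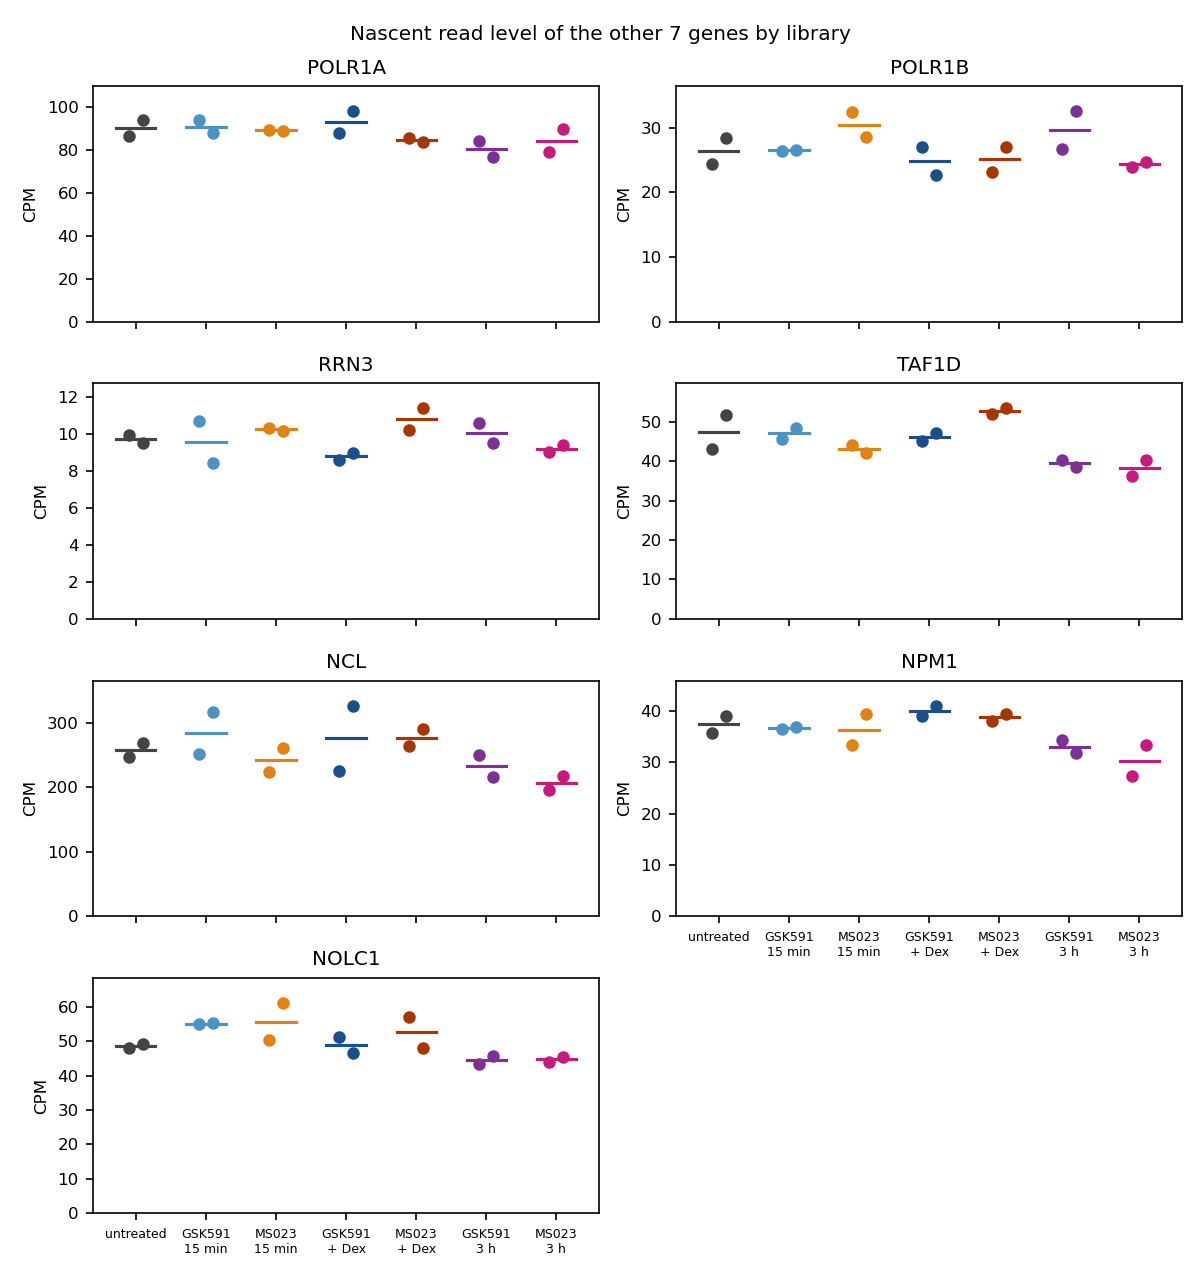
Level of the 7 genes with no called change in each of the 14 libraries (points, CPM on linear axes from 0), with the mean of each pair as a line. TAF1D, NCL and NPM1 have their lowest pair at 3 h of MS023, and NCL is widest within the pair given GSK591 and Dex.

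The counts of called members are given here beside the share of all tested genes called in the same comparison and direction. At 15 min of inhibitor alone none was called by edgeR or DESeq2, with 0.306% of all tested genes called for GSK591 and 0.196% for MS023. In each, 1 member had an unadjusted p under 0.05, beside 6.84% of all genes for GSK591 and 8.09% for MS023. With GSK591 and Dex, 0 members were called higher (3.2% of all genes) and 2 lower (2.65%). The MS023 and Dex group called 0 of them higher (4.94%) and 1 lower (2.7%). At 3 h 1 member was called higher and 0 lower with GSK591, beside 7.24% and 3.79% of all genes, and 1 higher and 0 lower with MS023, beside 5.4% and 2.23%. From 15 min to 3 h, 1 member was called higher and 0 lower with GSK591 (3.63% and 2.77% of all genes) and likewise with MS023 (7.65% and 4.39%). A single call is the smallest count above 0 that 10 genes can give, and no excess over these shares is read from it. The shares themselves moved by over 1.5 times without single libraries: the count of all genes called with GSK591 and Dex, for example, was 1282, and 421 without untreated replicate 1.

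At 15 min of inhibitor alone, 5 of 10 values lay below 0 with GSK591 (median -0.003) and 7 of 10 with MS023 (median -0.04). The uncalled values at 3 h were mostly negative with either inhibitor. At 3 h of MS023, 9 of the 10 values lay below 0, with a median of -0.13 against -0.01 over all tested genes, and 4 of the 9 had an unadjusted p under 0.05, beside 19.9% of all tested genes in either direction. The value above 0 was the called rise in UBTF. At 3 h of GSK591, 7 of 10 lay below 0 with a median of -0.14. These 2 comparisons share the untreated libraries. Against untreated, the medians were -0.02 for GSK591 with Dex and 0.08 for MS023 with Dex.

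Adding Dex to an inhibitor moved no member past the threshold in edgeR. Against GSK591 alone, 0 of 10 were called (3.7% of all genes), with 2 at an unadjusted p under 0.05 (16.7% of all genes), and DESeq2 called 1. Against MS023 alone, 0 of 10 were called (8.97% of all genes), with 3 at an unadjusted p under 0.05 (20.5% of all genes), and DESeq2 called none. The nearest was UBTF, which stood at 125 and 134.5 CPM with MS023 and Dex against 95.5 and 116 CPM with MS023 alone, a difference of 0.30 ± 0.10 (adjusted p = 0.054). Beside GSK591, UBTF had 119.6 and 107 CPM with Dex against 132 and 122 CPM without, a difference of -0.17 ± 0.10 (adjusted p = 0.44). Tested against each other, the 2 Dex effects on UBTF differed by -0.47 ± 0.14 (GSK591 minus MS023, adjusted p = 0.11). That test called 0 of 10 members (1.15% of all genes), with 3 at an unadjusted p under 0.05 (10.8% of all genes) and none by DESeq2. That UBTF difference passed the threshold without MS023 15 min replicate 2 (-0.61, adjusted p = 0.038) and without GSK591 with Dex replicate 1 (-0.56, adjusted p = 0.04).

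The inhibitors were not told apart by any of the 10 genes. At 15 min edgeR called 0 of 10 between GSK591 and MS023 (1.1% of all genes) and DESeq2 none, with 1 at an unadjusted p under 0.05 (9.77% of all genes). UBTF differed most, by 0.27 ± 0.10 (interval 0.07 to 0.48, edgeR adjusted p = 0.28). At 3 h edgeR called 0 of 10 members and no gene at all (0% of all genes), while 1319 genes had an unadjusted p under 0.05 and DESeq2 called 1 gene. POLR1B was the member with an unadjusted p under 0.05, at 0.28 ± 0.13 (interval 0.02 to 0.55, adjusted p = 0.78). The test of a different change from 15 min to 3 h, added after the data were seen, called 0 of 10 members (0.561% of all genes) and none by DESeq2. In it, 1 member had an unadjusted p under 0.05 (10% of all genes). Intervals were widest for RRN3, at -0.47 to 0.26 at 15 min, -0.23 to 0.50 at 3 h and -0.28 to 0.75 for the difference in change, so a missed threshold does not show that the inhibitors act alike.

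Several of these genes carry small nucleolar RNA (snoRNA) genes, which are cut from the host's introns and guide modification of ribosomal RNA. Inside the 10 genes the annotation places 16 snoRNA and 3 microRNA genes. The 13 that lie wholly within annotated host exons had 0 counts in all 14 libraries, and the 5 wholly in introns had 341 counts together. Of 1 further snoRNA, SNORA51, 77.3% lies in NOP56 exons, and it had 34 counts. A count of 0 here gives no level for the snoRNA. One box C/D snoRNA of each kind is shown with its box C (TGATGA) and box D (CTGA) in capitals, as GENCODE 29 gives it. SNORD20 lies in an intron of NCL at chr2:231456444-231456523 (minus strand), and SNORD57 lies in annotated exon sequence of NOP56 at chr20:2656939-2657010 (plus strand).
SNORD20: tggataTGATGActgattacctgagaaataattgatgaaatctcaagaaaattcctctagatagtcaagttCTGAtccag
SNORD57: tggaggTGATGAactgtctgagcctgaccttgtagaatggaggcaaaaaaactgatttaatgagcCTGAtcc
SNORD20 had 5 to 16 reads per library and SNORA75, also in NCL, 1 to 22. Both passed the filter on low counts, as did C11orf54, a gene on the other strand that lies within the TAF1D span, and none of the 3 was called in any comparison. SNORD57 had none in 14 libraries.

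Further genes of ribosome production were examined from lists of 10 polymerase I subunits and factors, 6 snoRNP proteins, 26 genes of early processing and small subunit assembly and 24 of large subunit assembly. All 66 were tested. Compared with untreated, 4 of the 66 fell and 1 rose with GSK591 and Dex (6.06% and 1.52%, against 2.65% and 3.2% of all tested genes). With MS023 and Dex, 4 fell and none rose (6.06% and 0%, against 2.7% and 4.94%). In this paragraph, a change beside an inhibitor is that of the inhibitor with Dex against untreated. TBL3, of the small subunit processome, fell by 0.59 ± 0.11 on the log2 scale beside GSK591 (adjusted p = 0.00078) and by 0.53 ± 0.11 beside MS023 (adjusted p = 0.0011). Its libraries were at 42.0 and 42.3 CPM untreated, 29.6 and 26.4 CPM with GSK591 and Dex, and 30.0 and 28.3 CPM with MS023 and Dex. Both TBL3 calls were kept under all 11 alternatives, but 29.9% of its exon bases are shared with genes on the other strand. NOL6, another processome protein, fell by 0.55 ± 0.14 beside GSK591 (adjusted p = 0.01) and by 0.56 ± 0.13 beside MS023 (adjusted p = 0.0045), to 15.9 ± 0.57 and 15.8 ± 1.8 CPM (SD, n = 2), and shares no exon base. These NOL6 calls were lost without untreated replicate 2, and also without either GSK591 with Dex replicate or without MS023 with Dex replicate 1. NOP16, of large subunit assembly, fell by 0.60 ± 0.17 (adjusted p = 0.026) and 0.58 ± 0.16 (adjusted p = 0.016), and NOL9, a kinase of large subunit processing, rose by 0.51 ± 0.14 with GSK591 and Dex (adjusted p = 0.024). The NOP16 and NOL9 calls were lost without either untreated replicate, and 20.0% of the NOP16 exon bases are shared with genes on the other strand. The other fall with Dex was in SURF6, of large subunit assembly, at -0.38 ± 0.10 beside GSK591 (adjusted p = 0.02) and -0.41 ± 0.10 beside MS023 (adjusted p = 0.0067). SURF6 was named after its values were seen, and its calls were lost without either untreated replicate. These comparisons share the untreated libraries, and the median of the 66 was 0.002 beside GSK591 and -0.06 beside MS023.

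At 3 h members of the same lists were called in both directions. With GSK591, 3 of 66 rose and 4 fell (4.55% and 6.06%, against 7.24% and 3.79% of all tested genes), and with MS023 1 rose and 3 fell (1.52% and 4.55%, against 5.4% and 2.23%). POLR1E, a subunit of polymerase I, rose with both. It had 13.0 and 11.9 CPM untreated, 19.9 and 19.1 CPM with GSK591 and 18.7 and 16.6 CPM with MS023, changes of 0.65 ± 0.14 (adjusted p = 0.0017) and 0.51 ± 0.15 (adjusted p = 0.024). The GSK591 call was kept under all 11 alternatives, and the MS023 call was lost without untreated replicate 1 or 2 or without MS023 3 h replicate 1. That MS023 call was also lost with DESeq2, with library size alone and with no count filter. POLR1E was also at 20.0 and 16.3 CPM with MS023 at 15 min, so its MS023 3 h pair overlapped the 15 min pair.

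The other rises at 3 h were in NOP10 and NMD3. NOP10, a core protein of the H/ACA snoRNPs, went from 1.51 ± 0.75 to 4.19 ± 0.025 CPM with GSK591 (1.46 ± 0.38, adjusted p = 0.0082), and that call was lost without untreated replicate 2 or either GSK591 3 h replicate. NMD3, the export adaptor of the large subunit, rose by 0.47 ± 0.14 (adjusted p = 0.019), lost without untreated replicate 1 or GSK591 3 h replicate 2. NOP53, of large subunit assembly, fell from 101 ± 8.5 CPM to 73.0 ± 7.3 CPM with GSK591 (adjusted p = 0.0012) and to 78.7 ± 4.0 CPM with MS023 (adjusted p = 0.02). From 15 min to 3 h it fell by 0.55 ± 0.10 with GSK591 and by 0.51 ± 0.10 with MS023, and both of these calls were kept under all 11 alternatives. Its calls against untreated were lost without untreated replicate 2, and also without GSK591 3 h replicate 1 or without either MS023 3 h replicate.

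TTF1, the polymerase I termination factor, fell by 0.61 ± 0.20 with GSK591 (adjusted p = 0.04) and DKC1 (dyskerin), the pseudouridine synthase of the H/ACA snoRNPs, by 0.47 ± 0.15 (adjusted p = 0.032). Both were lost without either untreated replicate or without GSK591 3 h replicate 2. FTSJ3, a methyltransferase of pre-ribosomal RNA that shares 16.8% of its exon bases with genes on the other strand, fell by 0.34 ± 0.09 with MS023 (adjusted p = 0.016), lost without any 1 of the 4 libraries. TCOF1 (treacle), which works with UBTF in ribosomal DNA transcription, fell by 0.34 ± 0.10 with MS023 (adjusted p = 0.034), lost without untreated replicate 2 or either MS023 3 h replicate. It was also the remaining fall with GSK591, named after its value was seen (-0.44 ± 0.10, adjusted p = 0.0032), which was lost without untreated replicate 2 or GSK591 3 h replicate 2. When libraries were scaled by their size alone, the split of the 66 at 3 h turned to 5 rises and 0 falls with GSK591 and to 0 of each with MS023. With mitochondrial genes left out of the library size it was 2 rises and 9 falls with GSK591. Over all tested genes, library size alone gave 1961 rises and 197 falls with GSK591 and 851 and 151 with MS023. Leaving out mitochondrial genes gave 989 rises and 1687 falls over all tested genes with GSK591.

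**Figure D5:**
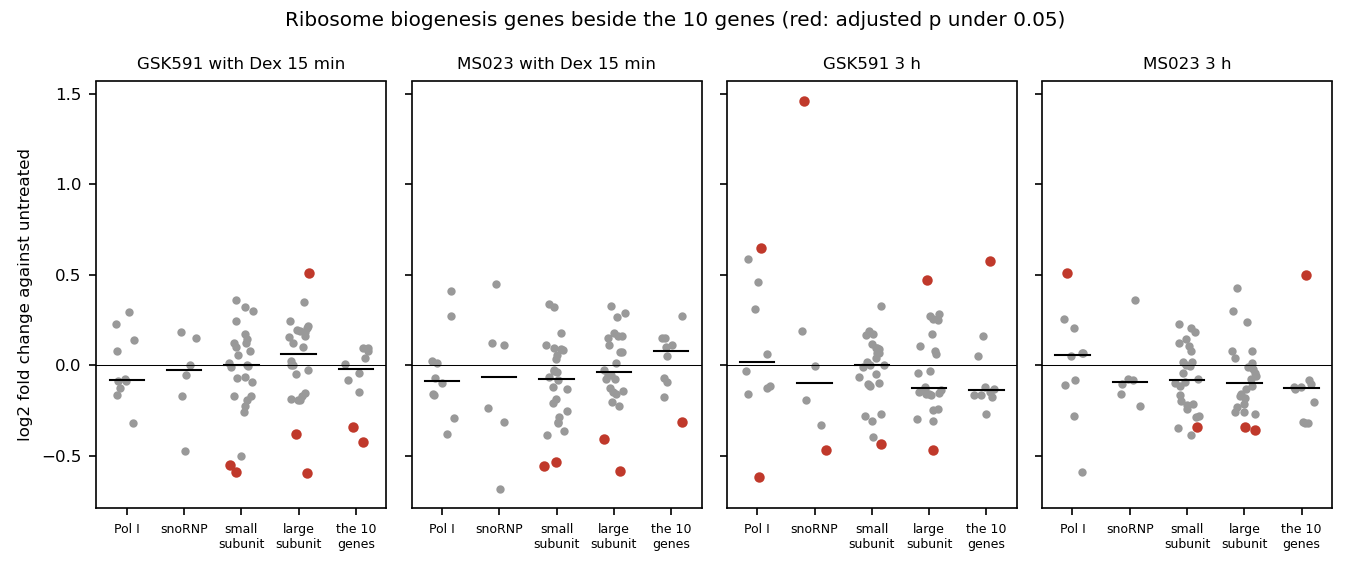
Log2 fold change against untreated (vertical axis) of the 66 further ribosome production genes by list and of the 10 genes, in 1 panel per treatment, with called genes in red and list medians as lines. Calls fall on both sides of 0 at 3 h and mostly below 0 with Dex.

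From 15 min to 3 h of the same inhibitor, 1 of the 66 rose and 2 fell with GSK591 (1.52% and 3.03%, against 3.63% and 2.77% of all tested genes), and 2 rose and 6 fell with MS023 (3.03% and 9.09%, against 7.65% and 4.39%). With GSK591 these were POLR1E (0.55 ± 0.15, adjusted p = 0.014), NOP53 and TCOF1 (-0.42 ± 0.10, adjusted p = 0.0099). With MS023 NMD3 rose by 0.59 ± 0.14 (adjusted p = 0.0039) and NOL9 by 0.43 ± 0.15 (adjusted p = 0.047). POLR1H, another polymerase I subunit, fell by 0.73 ± 0.25 with MS023 (adjusted p = 0.045), and 24.5% of its exon bases are shared with genes on the other strand. UTP14A, of the small subunit processome, fell by 0.59 ± 0.17 (adjusted p = 0.014). The POLR1E, TCOF1, NOL9 and POLR1H calls were lost without any 1 of their 4 libraries. The NMD3 call was lost without MS023 15 min replicate 1 or MS023 3 h replicate 1, and the UTP14A call without either MS023 15 min replicate or MS023 3 h replicate 1. Adding Dex to MS023 gave 2 rises and 6 falls among the 66 (3.03% and 9.09%, against 5.88% and 3.09% of all tested genes), and adding it to GSK591 gave 0 and 4 (0% and 6.06%, against 1.43% and 2.27%). Nothing particular to the lists is read from these shares. Neither inhibitor alone at 15 min gave a call among the 66 by edgeR or DESeq2. An unadjusted p under 0.05 was reached by 3 of them with GSK591 and 7 with MS023, beside 6.84% and 8.09% of all tested genes. The inhibitors against each other gave none by either tool. There 6 had an unadjusted p under 0.05 at 15 min (9.77% of all genes) and 6 at 3 h (6.02%). In the 6 comparisons that called 1 of the 10 genes, the 66 genes gave 31 calls, of which 5 were kept under all alternatives, 15 were lost with DESeq2 (which gave no adjusted p for 1 more) and 14 with scaling by library size alone. None took the other sign. Apart from POLR1E with MS023 at 3 h, the losses named gene by gene for the 66 are those on leaving out a library. Calls also lost with DESeq2 include those of NOP16 and NOL9, and those of TTF1, DKC1 and NMD3 with GSK591 at 3 h. The TCOF1 call with MS023 at 3 h, and those from 15 min to 3 h of POLR1E with GSK591 and of POLR1H and UTP14A with MS023, were lost there too.

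The 10 genes did not vary as 1 group across the 14 libraries. Over their 45 pairs Pearson's r of log2 CPM ran from -0.64 (POLR1A with UBTF) to 0.78 (TAF1D with NPM1), with a median of 0.06 and 28 pairs above 0. TAF1D, NCL and NPM1 had r between 0.73 and 0.78 with each other, and FBL and NOP56 had 0.62. UBTF had r of -0.54 with NPM1 and -0.49 with TAF1D. Among 9956 other genes whose mean reached 10 CPM, the gene most like UBTF was NR2F6, a nuclear receptor gene, with r of 0.98. The most like NOP56 was CEP89 (0.93), the most like FBL was ABCG2 (0.87), the most like NCL was MALAT1 (0.92) and the most like TAF1D was RPS21 (0.94), a ribosomal protein gene. These values describe 14 libraries that share groups and scaling, and the highest of 9956 is high by selection.

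In the authors' deposited table of DESeq2 comparisons with untreated, 1 member had an adjusted p under 0.05. This was UBTF with GSK591 at 3 h, at 0.53 ± 0.15 (adjusted p = 0.012). Among the 58780 genes listed there, 535 passed this threshold in that comparison and 359 after 3 h of MS023. Where Dex was added, 154 passed beside GSK591 and 238 beside MS023. At 15 min without Dex, 0 passed under GSK591 and 3 under MS023. No excess over these counts is read from the 1 member. The authors' deposited table gave UBTF with MS023 at 3 h as 0.46 ± 0.15 (adjusted p = 0.067). For NOP56 the authors' deposited table gave -0.38 ± 0.12 (adjusted p = 0.076) with GSK591 and Dex and -0.35 ± 0.12 (adjusted p = 0.1) with MS023 and Dex. The directions were those found here.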

How the data were processed

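PRO-seq was done on 14 A549 libraries in 7 groups of 2, grouped by their labels. The deposited table holds read counts per gene as the authors made them, with featureCounts 2.0.1 (Subread) on hg38 per the submitters' processing notes. How reads were aligned, over which features and strand they were counted, and whether duplicates were removed are not given in the sources used here. The authors' deposited DESeq2 tables give, per the file headers, a mean signal (baseMean), a log2 fold change with its standard error, a test score (stat) and p-values.

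The 10 genes and the lists of other ribosome production genes were chosen with earlier results of these data known. Under R 4.3.3, counts were tested with edgeR 4.0.16 after TMM scaling and its filter on low counts, in 1 fit over all 14 libraries with a coefficient per group and 7 residual degrees of freedom. The biological coefficient of variation was 0.0728. Benjamini-Hochberg adjustment ran over 21910 genes in each of 13 comparisons, and 1 more was added after the data were seen. The scripts were checked on simulated data. CPM used TMM-scaled library sizes, and no spike-in entered, so changes are relative to most other genes. Standard errors carry both counting error and the spread between libraries, which edgeR estimates in part across genes. GENCODE 29 supplied coordinates and exon lengths, and correlations used log2 CPM with a prior count of 2. Genes named from the lists are those called in comparisons that also call 1 of the 10 genes, at most the 3 largest changes in each direction. For each of the 10 genes the most like gene among others whose mean reached 10 CPM was found, and 5 of those are printed. Alternatives were DESeq2 size factors, library size alone, library size without mitochondrial genes, no count filter, a replicate block, a fit on the compared groups only, DESeq2 1.42.0, and leaving out each library.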

Additional observations from a re-analysis of the deposited data

How the results depend on the processing

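UBTF at 3 h against untreated kept its call with both inhibitors under every alternative tried, with the largest adjusted p at 0.0099 for GSK591 and 0.037 for MS023. No called value changed sign. The number of the 10 genes called moved in several comparisons, and the cause was not tested. Fitting only the compared groups gave 0 (from 2) for GSK591 with Dex, 2 (from 1) for MS023 with Dex and for either inhibitor at 3 h, and 1 (from 0) for Dex added to MS023. Over all genes these fits called 801 (from 1282) for GSK591 with Dex and 2620 (from 1674) for MS023 with Dex. They called 3423 (from 2418) for GSK591 and 1885 (from 1672) for MS023 at 3 h, and 2202 (from 1965) for Dex added to MS023. DESeq2 gave 1 (from 2) for GSK591 with Dex and 1 (from 0) for Dex added to GSK591, beside 627 (from 1282) and 410 (from 811) over all genes. Library size alone gave 0 for MS023 with Dex, 2 for Dex added to GSK591 and 0 for GSK591 at 3 h against 15 min. Over all genes these 3 counts were 978 (from 1674), 1472 (from 811) and 713 (from 1403). Library size without mitochondrial genes gave 2 for either inhibitor at 3 h, 1 for Dex added to GSK591, 2 for Dex added to MS023 and 1 for the difference of Dex effects. Over all genes it gave 2676 (from 2418) for GSK591 and 1572 (from 1672) for MS023 at 3 h. It gave 901 (from 811) for Dex added to GSK591, 1928 (from 1965) for Dex added to MS023 and 479 (from 251) for the difference. No count filter gave 2 for MS023 at 3 h, where NCL passed (-0.33, adjusted p = 0.03), beside 1570 (from 1672) over all genes. TAF1D passed at 3 h without mitochondrial genes in the library size (-0.38 with GSK591, -0.36 with MS023). Leaving out 1 library gave 0 to 1 when GSK591 and Dex were compared with untreated, 0 when MS023 and Dex were, 1 for GSK591 at 3 h, 1 to 2 for MS023 at 3 h, 0 for GSK591 at 3 h against 15 min, 1 for MS023 at 3 h against 15 min (NOLC1 lower in place of UBTF higher without MS023 15 min replicate 1, and also with library size alone, -0.46, adjusted p = 0.04), 0 to 1 for Dex added to MS023 and for the difference of Dex effects, and 0 elsewhere. An arm left with 1 library was assumed to vary like the other groups.

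Over 21 pairs of groups the correlation of same-numbered replicate deviations ran from -0.07 to 0.10, with 1 over 0.1. These correlations run over all tested genes and cannot show whether replicate numbers pair the libraries. The fit with the replicate block called 1 (from 0) of the 10 genes for Dex added to MS023 (UBTF, 0.30, adjusted p = 0.048) and changed no other call among them. Over all genes it called more in every comparison, such as 2536 (from 2418) for GSK591 at 3 h and 2034 (from 1965) for Dex added to MS023. Standard errors of the called members were slightly lower, such as 0.097 (from 0.099) for UBTF with GSK591 at 3 h.

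Counts over all genes moved more. With DESeq2 they were 18 (from 67) for GSK591 and 31 (from 43) for MS023 at 15 min, 627 (from 1282) and 832 (from 1674) with Dex, 1266 (from 2418) and 917 (from 1672) at 3 h, 584 (from 1403) and 1426 (from 2638) from 15 min to 3 h. Leaving out 1 library gave 4 (without GSK591 15 min replicate 1) to 97 and 2 (without untreated replicate 2) to 22 at 15 min, 421 to 1058 and 657 to 963 with Dex (both lowest without untreated replicate 1), 1089 to 1412 and 834 to 1240 at 3 h (both lowest without untreated replicate 2), and 387 (without GSK591 15 min replicate 2) to 665 and 1159 (without MS023 15 min replicate 1) to 1788 from 15 min to 3 h. It gave 339 (without GSK591 15 min replicate 1) to 1014 (from 811) for Dex added to GSK591, and 642 to 1572 (from 1965) for Dex added to MS023, 8 to 495 (from 251) for the difference of Dex effects and 0 to 287 (from 240) between inhibitors at 15 min, each of these 3 lowest without MS023 15 min replicate 1. Between inhibitors at 3 h it gave 0 to 6 (from 0), and for the difference of 3 h changes 1 (without MS023 15 min replicate 1) to 192 (from 123). The split of higher and lower calls followed the scaling. At 3 h of GSK591 it was 1587 and 831, against 1961 and 197 with library size alone and 989 and 1687 without mitochondrial genes, where the median of all genes shifted by 0.12 and -0.12. With GSK591 and Dex it was 702 and 580, against 228 and 739 and 342 and 1703, at medians of -0.12 and -0.14. With MS023 and Dex 1083 of 1674 calls were higher, against 732 of 1779 without mitochondrial genes. RRN3 had the fewest reads of the 10, at 59 to 101 per library.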
